A study of Homo sapiens with 6 samples.

Results

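BCL2 family transcripts were followed in K562, a human cell line that was derived from chronic myelogenous leukaemia and keeps erythroid traits. Treated cells received 3FM-dC at 20 µM together with THU at 2 mM, control cells received DMSO, and both were incubated for 24 h. The family was taken as 10 gene symbols fixed by name, out of 23710 symbols with a count in the deposited files. There are 3 guardians (BCL2, BCL2L1 and MCL1), 2 effectors (BAX and BAK1) and 5 BH3-only genes (BCL2L11, BBC3, PMAIP1, BID and BAD). Each group had 3 libraries of a strand-specific mRNA kit with an input of 1000 ng RNA each, and the labels give passages 13 to 16 and 10% serum for every sample. The labels give 3FM-dC and THU by these names alone, and DMSO as the solvent of both. Every treated library received both compounds and no library received either alone. What 3FM-dC does and what THU does thus cannot be told apart. Per its title, the series concerns a small-molecule activator of TET2, an enzyme that oxidises 5-methylcytosine in DNA. All libraries came from 1 cell line, and separate cultures are not stated for the replicates, so that p-values reflect no more than the variation among these libraries, which may be technical.

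The BCL2 family decides whether the outer mitochondrial membrane opens during apoptosis. BAX and BAK1 form pores in that membrane and release cytochrome c, the guardians bind and restrain them, and the BH3-only proteins, many of them induced by stress, bind guardians or activate the effectors directly. In blood cells BCL2L1, which encodes BCL-XL, and MCL1 are known as survival factors of the erythroid and myeloid lineages, and BBC3 and PMAIP1, which encode PUMA and NOXA, are known to be induced by several kinds of cell stress.

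In cells given 3FM-dC plus THU, all 3 guardian transcripts and 3 of the 5 BH3-only transcripts were higher than in DMSO, the BH3-only genes BID and BAD were lower, and neither effector passed the test. BCL2 was 4.26-fold and BBC3 3.40-fold higher, PMAIP1 1.81-fold, and the others within 1.35-fold in either direction. Thus transcripts that encode inhibitors of pore formation and transcripts that encode its activators were higher in the same libraries. With the quasi-likelihood test of edgeR, adjusted by Benjamini-Hochberg, 8 of the 10 members changed at an adjusted p under 0.05, against 66.4% of the 12339 genes tested. Of the members 6 rose, against 33.8% of tested genes, and 2 fell, against 32.7%. Changes this frequent across the transcriptome mean that the number of members called is not in itself a result about the family. All 10 members were tested, and each had enough counts in the DMSO libraries alone to pass the filter on low counts.

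Depth was similar across libraries, at 18408826 to 22750278 counts assigned to genes. The 7 erythroid markers fixed for K562 cells were all detected and summed to between 2571 and 2747 CPM (a gene's share of the TMM-scaled library in ppm) in treated libraries and between 5131 and 5249 CPM in DMSO libraries. Among markers of other cells, the 4 lymphoid ones summed to between 2.19 and 3.33 CPM in treated libraries and between 0.672 and 1.41 CPM in DMSO libraries, with MS4A1 at 0. The 6 fibroblast and endothelial markers summed to between 6.81 and 11.5 CPM in treated libraries and between 10.3 and 13.8 CPM in DMSO libraries, with LUM and CDH5 at 0. The 3 epithelial markers summed to between 60.6 and 63.6 CPM in treated libraries and between 102 and 103 CPM in DMSO libraries, nearly all of it from EPCAM, with KRT5 at 0. The part of these shifts in the changes of the family was not tested.

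Promoter sequences of the 3 members with the largest rises and of the effector BAX, for contrast, are shown first, since the rises of BBC3, PMAIP1 and BCL2 are the main differences in the family. Each is the stretch of 250 bases before the transcription start in RefSeq on GRCh38.p14, read 5′ to 3′ on the gene's own strand and matched by symbol. The BBC3 promoter lies at chr19:47232668-47232917 on the minus strand, that of PMAIP1 at chr18:59899746-59899995 on the plus strand, that of BCL2 at chr18:63319770-63320019 on the minus strand and that of BAX at chr19:48954625-48954874 on the plus strand. Capitals mark the E-box CACGTG and the SP1 box GGGCGG, which reads CCGCCC on the other strand.
BBC3: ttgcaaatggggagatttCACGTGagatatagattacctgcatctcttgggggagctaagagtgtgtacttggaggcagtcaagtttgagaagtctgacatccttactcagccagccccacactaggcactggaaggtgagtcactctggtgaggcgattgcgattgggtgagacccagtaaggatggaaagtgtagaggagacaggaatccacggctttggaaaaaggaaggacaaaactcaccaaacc
PMAIP1: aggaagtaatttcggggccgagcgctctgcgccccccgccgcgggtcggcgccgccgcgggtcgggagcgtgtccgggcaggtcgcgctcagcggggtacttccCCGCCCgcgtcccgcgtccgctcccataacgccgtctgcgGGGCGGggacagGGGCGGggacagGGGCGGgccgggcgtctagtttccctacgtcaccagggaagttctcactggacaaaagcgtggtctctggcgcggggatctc
BCL2: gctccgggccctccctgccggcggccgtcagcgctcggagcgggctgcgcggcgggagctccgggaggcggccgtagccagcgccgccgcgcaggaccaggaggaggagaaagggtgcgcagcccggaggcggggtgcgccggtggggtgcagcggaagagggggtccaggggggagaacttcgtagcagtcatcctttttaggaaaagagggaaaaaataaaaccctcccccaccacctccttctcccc
BAX: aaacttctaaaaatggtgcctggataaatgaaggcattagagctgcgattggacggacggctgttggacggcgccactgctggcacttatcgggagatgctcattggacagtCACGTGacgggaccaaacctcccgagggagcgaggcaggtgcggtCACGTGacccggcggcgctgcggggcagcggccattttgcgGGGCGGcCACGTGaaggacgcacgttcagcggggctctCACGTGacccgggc

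Both strands were searched for 4 motifs, and no match marked in capitals overlaps another. The E-box, which MYC and other factors bind, was found at 4 places in the BAX stretch and at 1 place in that of BBC3, against 6.34% of 35116 RefSeq promoters of the same length with at least 1. The SP1 box was found at 4 places in the PMAIP1 stretch, at 1 place in that of BAX and at none in those of BBC3 and BCL2, and 42.6% of all promoters hold it. Neither the C/EBP-ATF element TGATGNAAN, held by 3.13% of promoters, nor the CRE TGACGTCA, held by 1.65%, was found in any of these 4 stretches, which says only that these letters are absent from this window. The 3 members with the largest rises differ in CpG content. In the PMAIP1 stretch stand 36 CpG dinucleotides, in that of BCL2 24 and in that of BBC3 4. The BAX stretch holds 25, and the median over all promoters is 11. A single start per gene was used for these 4 genes, while several members have further starts, and 9 of the 10 members were matched, all but MCL1.

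Among the guardians, BCL2, the founding member of the family, had the fewest counts and the largest fold. It had 111, 140 and 153 counts in treated replicates 1, 2 and 3, against 21, 37 and 30 counts in DMSO replicates 1, 2 and 3. These correspond to 5.68, 6.66 and 7.17 CPM in treated cells, against 1.16, 2.07 and 1.36 CPM in DMSO cells. The groups did not overlap, as was the case for 70.0% of all genes tested, and the lowest treated library lay above the highest DMSO library by more than the spread within either group. BCL2 averaged 6.51 ± 0.756 CPM in treated cells and 1.53 ± 0.478 CPM in DMSO cells (SD, n = 3 each), a log2 fold change of 2.09 (SE 0.23, edgeR adjusted p = 5.46e-09). The 95% interval of the fold ran from 3.07 to 5.91, and 96.7% of tested genes had a lower log2 fold change. In bulk RNA, a change in the share of cells that express a gene and a change in the RNA per cell cannot be told apart.

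BCL2L1 encodes BCL-XL, the guardian that erythroid cells rely on. Its level was 312, 305 and 313 CPM in the treated libraries, against 232, 240 and 235 CPM in the DMSO libraries, without overlap. The rise was 1.32-fold (log2 fold change 0.40, SE 0.04, edgeR adjusted p = 1.27e-10), larger than the spread within either group. MCL1, a short-lived guardian, had 384, 407 and 402 CPM in treated cells, against 347, 349 and 349.7 CPM in DMSO cells. Its groups did not overlap either, but the rise was only 1.14-fold (log2 fold change 0.19, SE 0.04, edgeR adjusted p = 2.67e-05). Tested against a minimum fold change of 1.2, MCL1 did not pass (adjusted p = 1), and its highest adjusted p over the other alternatives was below the threshold. Counts per gene do not separate the long and short splice forms of BCL2L1 and MCL1, which are known to have opposite roles.

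**Figure D1:**
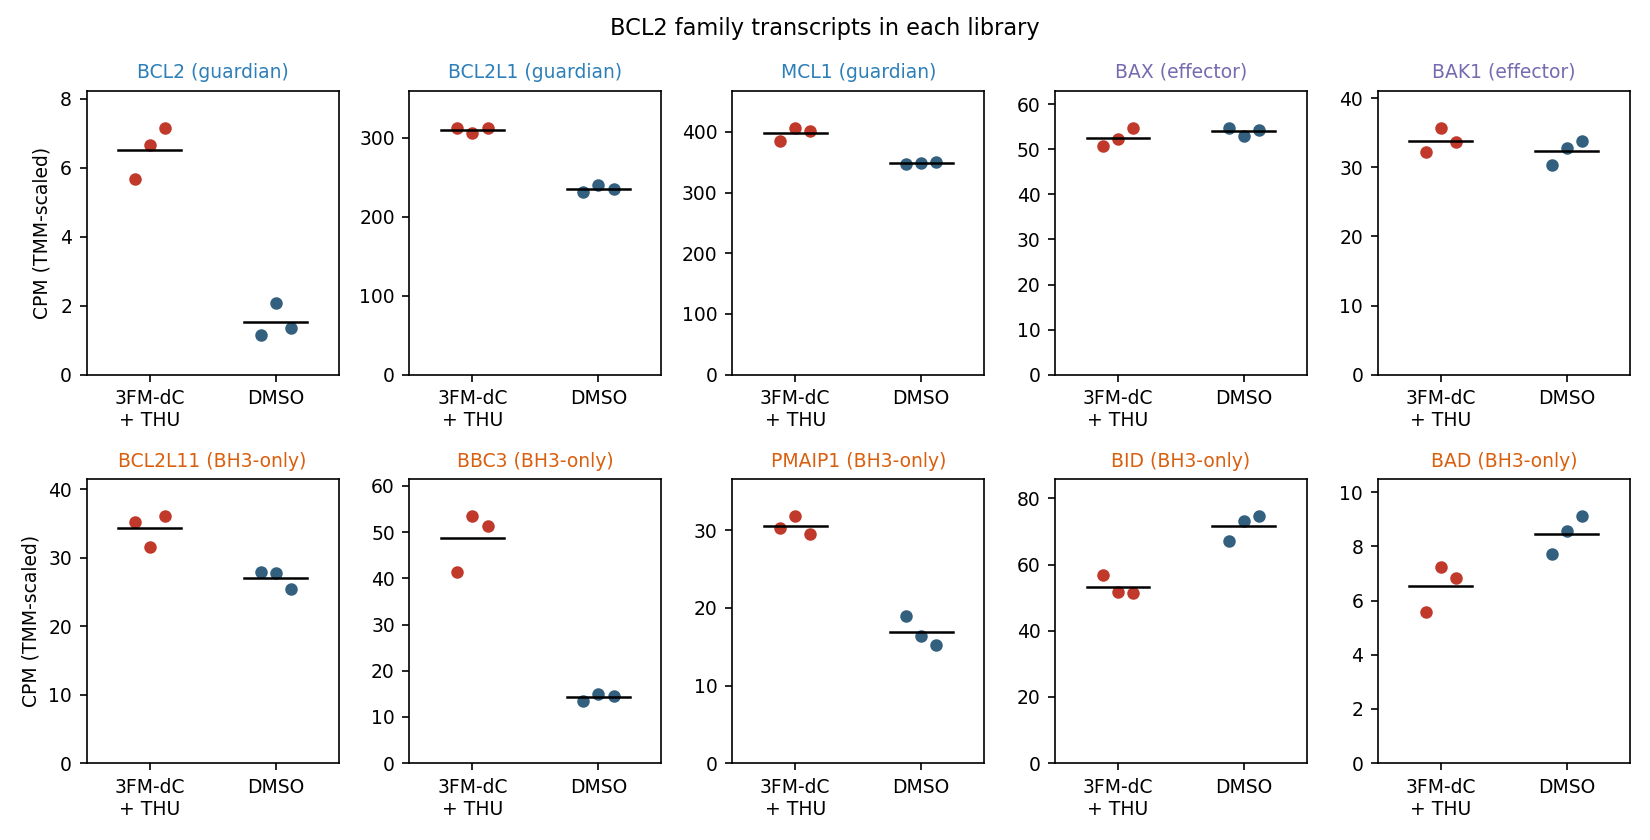
Expression of the 10 BCL2 family genes in CPM scaled by TMM, with 1 point per library and the group mean as a line, for cells given 3FM-dC plus THU on the left of each panel and DMSO on the right. Each panel has its own axis. Relative to the level of the gene, BCL2 and BBC3 show the widest gaps between groups. BID and BAD are lower in treated cells, and the points of BAX and BAK1 overlap.

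The effectors BAX and BAK1, which form the membrane pores, were the 2 members without a call. Of the 12339 genes tested, 4141 had no call either. BAX had 50.7, 52.3 and 54.7 CPM in the treated libraries, against 54.8, 53.1 and 54.3 CPM in the DMSO libraries. BAK1 had 32.2, 35.8 and 33.6 CPM in treated cells, against 30.3, 32.8 and 33.8 CPM in DMSO cells. The groups overlapped for both genes. For BAX the fold was 0.973 with a 95% interval from 0.896 to 1.06 (edgeR adjusted p = 0.569), and for BAK1 it was 1.05 with an interval from 0.944 to 1.16 (edgeR adjusted p = 0.444). The sign of the BAX estimate turned with total-count scaling, to a log2 fold change of 0.051. Both intervals leave room for small changes in either direction.

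Of the BH3-only genes among the 10 members, BBC3 rose most. It encodes PUMA, which binds every guardian. Its level was 41.4, 53.5 and 51.3 CPM in treated cells, against 13.5, 15.01 and 14.5 CPM in DMSO cells. Every treated library was far above every DMSO library, and treated replicate 1 was the lowest of the treated ones. The log2 fold change was 1.76 (SE 0.09, edgeR adjusted p = 3.08e-16), with a 95% interval of the fold from 2.99 to 3.86, and 95.5% of tested genes had a lower value. Only BCL2 and BBC3 among the 10 members rose at least 2-fold with an adjusted p under 0.05, which 10.2% of tested genes did, and no member fell as much, which 2.46% did.

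PMAIP1 encodes NOXA, a selective partner of MCL1. Treated libraries had 30.3, 31.8 and 29.6 CPM of it, against 19.0, 16.4 and 15.3 CPM in DMSO libraries. These ranges did not overlap, and the log2 fold change was 0.86 (SE 0.09, edgeR adjusted p = 1.24e-09). BCL2L11 encodes BIM, a broad activator that is kept low by BCR-ABL signalling in this leukaemia. It had 35.3, 31.6 and 36.1 CPM in treated cells, against 27.9, 27.8 and 25.5 CPM in DMSO cells, also without overlap. Its rise was 1.27-fold (log2 fold change 0.34, SE 0.08, edgeR adjusted p = 0.000237), a call lost against a minimum fold change of 1.2 (adjusted p = 0.114, with a lowest value of 8.45e-06 over all alternatives).

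BID and BAD went the other way. BID, which caspase 8 cleaves to link death receptors to mitochondria, had 56.8, 51.8 and 51.3 CPM in treated cells, against 67.3, 73.1 and 74.7 CPM in DMSO cells. Every treated library was below every DMSO library, and the log2 fold change was -0.43 (SE 0.06, edgeR adjusted p = 2.90e-07). BAD, a BH3-only protein controlled by survival kinases, had 5.58, 7.24 and 6.84 CPM in treated cells, against 7.71, 8.57 and 9.12 CPM in DMSO cells. Its ranges did not overlap but lay close together, and the log2 fold change was -0.37 (SE 0.15, edgeR adjusted p = 0.0305). The call for BAD was lost with total counts (adjusted p = 0.103), with a filter at 5 CPM (0.0532), against a minimum fold change of 1.2 (0.201), without treated replicate 1 (0.134), without DMSO replicate 2 (0.0625) and without DMSO replicate 3 (0.125), over a range from 0.0173 to 0.201. In GENCODE 29, 23.7% of the exonic length of BAD is shared with GPR137 on the opposite strand, the largest share with a counted gene among the members. GPR137 was 31.3 ± 3.38 CPM in treated cells and 19.3 ± 1.17 CPM in DMSO cells (SD, n = 3 each), a log2 fold change of 0.69 (SE 0.09, edgeR adjusted p = 6.51e-08). The strand setting of the counting is not given in the sources used here, so that reads in the shared stretch cannot be assigned, and the part of this overlap in the value of BAD was not tested. Long non-coding RNAs that have no row of that name in the count files lie opposite 43.0% of the exonic length of BCL2L1 (ABALON) and 10.9% of that of BCL2L11 (MIR4435-2HG). Without the strand setting, it is not known whether reads from these RNAs were counted with those of the members. BAK1 has processed pseudogenes with which it can share reads, and its values are uncertain to that extent.

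**Figure D2:**
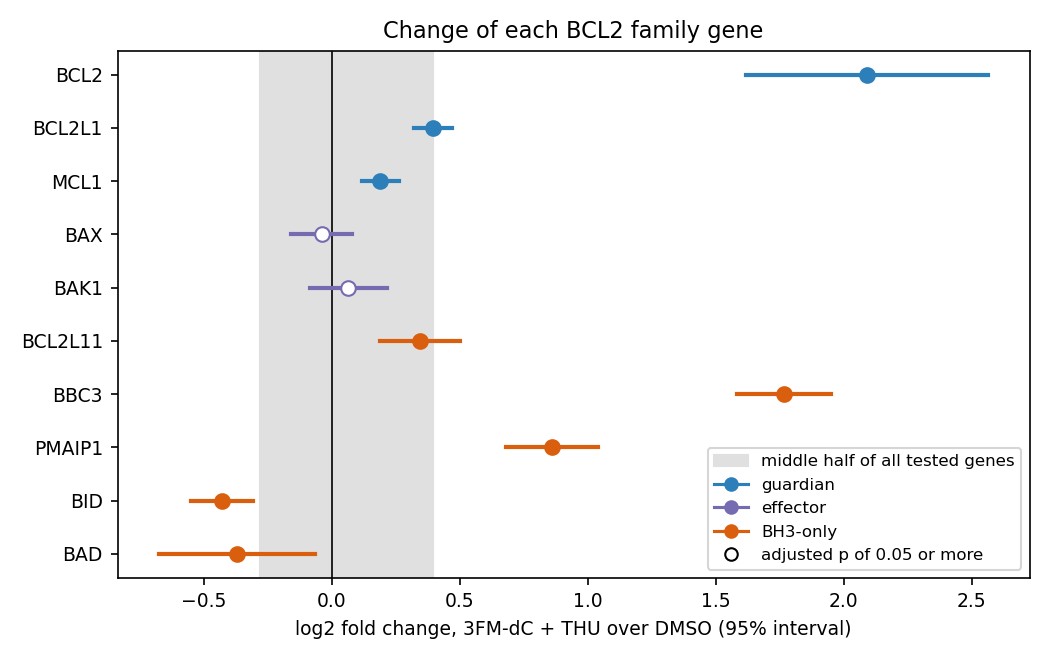
Log2 fold change of each BCL2 family gene, 3FM-dC plus THU over DMSO, with its 95% interval from the edgeR fit on 3 libraries per group; the grey band runs from -0.28 to 0.39 and spans the lower to the upper quartile of all 12339 tested genes. BCL2, BBC3 and PMAIP1 have intervals wholly above the band and BID has one wholly below it, while the intervals of BAX and BAK1 cross 0.

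The authors' deposited table compares group B with group A without naming the groups. Its fold ratios for the members were 4.20 for BCL2, 3.36 for BBC3, 1.79 for PMAIP1, 1.30 for BCL2L1, 1.26 for BCL2L11, 1.13 for MCL1, 1.04 for BAK1, 0.963 for BAX, 0.766 for BAD and 0.736 for BID. These ratios fall on the same side of 1 as the folds computed here from the counts in all 10 members. In the authors' deposited table the adjusted p-value was 0.0458 for BAD, 0.647 for BAX and 0.772 for BAK1, and it was at most 0.000407 for the other 7.

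Levels of different members were compared per length, as CPM per kilobase of the exonic length in GENCODE 29. BCL2L1 had 93.6 ± 1.24 CPM per kilobase in treated cells and 71.1 ± 1.26 in DMSO cells, and MCL1 had 91.0 ± 2.75 in treated cells and 79.8 ± 0.321 in DMSO cells (SD, n = 3 each). These guardians had the highest levels per kilobase of all members in both groups. Their ranges overlapped in treated cells and not in DMSO cells, where MCL1 was higher. BAX followed with 20.3 ± 0.776 CPM per kilobase in treated cells and 20.9 ± 0.353 in DMSO cells, and BCL2 was the lowest member in both groups, with 0.553 ± 0.0642 in treated cells and 0.130 ± 0.0406 in DMSO cells. The order in between changed: BBC3 had 15.3 ± 2.02 CPM per kilobase in treated cells and 4.51 ± 0.236 in DMSO cells, so that it stood 4th of 10 in treated cells and 8th in DMSO cells. Its treated range overlapped that of BAK1, at 15.3 ± 0.819 CPM per kilobase in treated cells and 14.6 ± 0.831 in DMSO cells. The treated range of BBC3 also overlapped that of PMAIP1, and its DMSO range overlapped that of BAD. These ranks of BBC3 are thus ranks of means that the libraries do not separate from all neighbouring genes. PMAIP1 had 13.7 ± 0.524 CPM per kilobase in treated cells and 7.56 ± 0.859 in DMSO cells, against 11.99 ± 0.685 in treated cells and 16.1 ± 0.879 in DMSO cells for BID. PMAIP1 thus stood above BID in treated cells and below it in DMSO cells, without overlap in either group. With the longest transcript as the length, the mean of BID stood above that of PMAIP1 in both groups, and that of BCL2L1 above that of MCL1 in both. In DMSO cells BCL2L1 then averaged 90.2 and MCL1 88.7 CPM per kilobase, and library ranges were not compared on this length. On that length BBC3 averaged 26.5 CPM per kilobase in treated cells and 7.80 in DMSO cells, so that it stood 4th in treated cells and 7th in DMSO cells, and in treated cells it lay above BAK1, which stayed at 15.3 and stood 7th there. The same length put BAX at 38.7 CPM per kilobase in treated cells and 39.8 in DMSO cells, BID at 21.4 in treated cells and 28.7 in DMSO cells, and BCL2 at 0.872 in treated cells and 0.205 in DMSO cells. At the low end, BCL2L11 had 5.15 ± 0.358 CPM per kilobase in treated cells and 4.06 ± 0.203 in DMSO cells, and BAD 3.84 ± 0.506 in treated cells and 4.96 ± 0.417 in DMSO cells.

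Summed by role, the 3 guardians came to between 183 and 187 CPM per kilobase in treated libraries and between 149 and 152 in DMSO libraries. The 5 BH3-only genes came to between 47.9 and 51.7 CPM per kilobase in treated libraries and between 36.6 and 37.7 in DMSO libraries, and the 2 effectors to between 34.1 and 36.4 in treated libraries and between 34.9 and 36.3 in DMSO libraries. The guardian and BH3-only sums were thus both higher in every treated library than in any DMSO library, and the effector sums overlapped. Little of the guardian sum came from BCL2, the guardian with the largest fold.

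**Figure D3:**
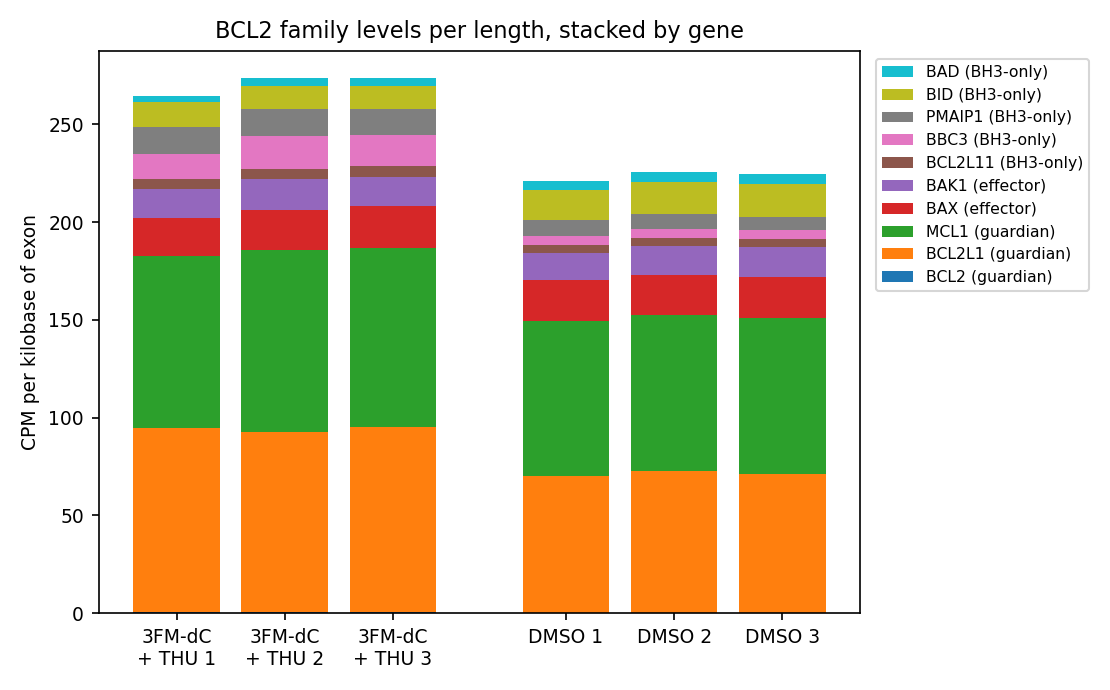
Stacked levels of the 10 BCL2 family genes in CPM per kilobase of exon, with 1 bar per library, treated libraries on the left and DMSO libraries on the right. BCL2L1 and MCL1 fill most of each bar, BBC3 is visibly thicker in the treated bars, and BCL2, at 0.553 CPM per kilobase or less on average, cannot be seen at this scale.

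The effector and BH3-only genes were set against the guardians as the ratio of 2 genes' counts within a library, which no library scaling can change. These are ratios of RNA counts without correction for length, and the balance of the proteins was not measured. Of 21 such ratios, each effector or BH3-only gene over each guardian, 4 were higher in every treated library than in any DMSO library, 13 were lower, and 4 overlapped. For single genes, the CPM of 70.0% of all tested genes did not overlap between groups. That share is not one of ratios, and no share over ratios of other gene pairs was computed. The ratios share their genes, and 6 of the 13 lower ones have BCL2 as the denominator. The 4 higher ones were BBC3 and PMAIP1 over BCL2L1 and over MCL1. With 3 libraries against 3 the smallest two-sided p of an exact permutation test is 0.1, which becomes 0.124 after Benjamini-Hochberg adjustment over the 21 ratios, so no ratio could pass the threshold.

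BBC3 over MCL1 had log2 ratios of -3.21, -2.93 and -2.97 in treated libraries, against -4.68, -4.54 and -4.59 in DMSO libraries, a difference of 1.57, or 2.96-fold. BBC3 over BCL2L1 was 2.57-fold higher in treated cells. PMAIP1 was 1.59-fold higher relative to MCL1 and 1.38-fold higher relative to BCL2L1. In each of these pairs the BH3-only gene had the larger fold of its own. Relative to BCL2, the same BH3-only genes were not higher: PMAIP1 over BCL2 was lower in every treated library (log2 difference -1.26), and BBC3 over BCL2 overlapped between groups (-0.37). BAX was lower relative to each of the 3 guardians, by -2.16 over BCL2, -0.44 over BCL2L1 and -0.23 over MCL1 on the log2 scale. BAK1 was lower by -2.06 over BCL2 and -0.33 over BCL2L1, while its ratio to MCL1 (-0.12) overlapped between the groups. BID and BAD were lower relative to all 3 guardians, BID by -0.62 and BAD by -0.56 over MCL1. The ratios of BCL2L11 to BCL2L1 (-0.06) and to MCL1 (0.15) overlapped between the groups.

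**Figure D4:**
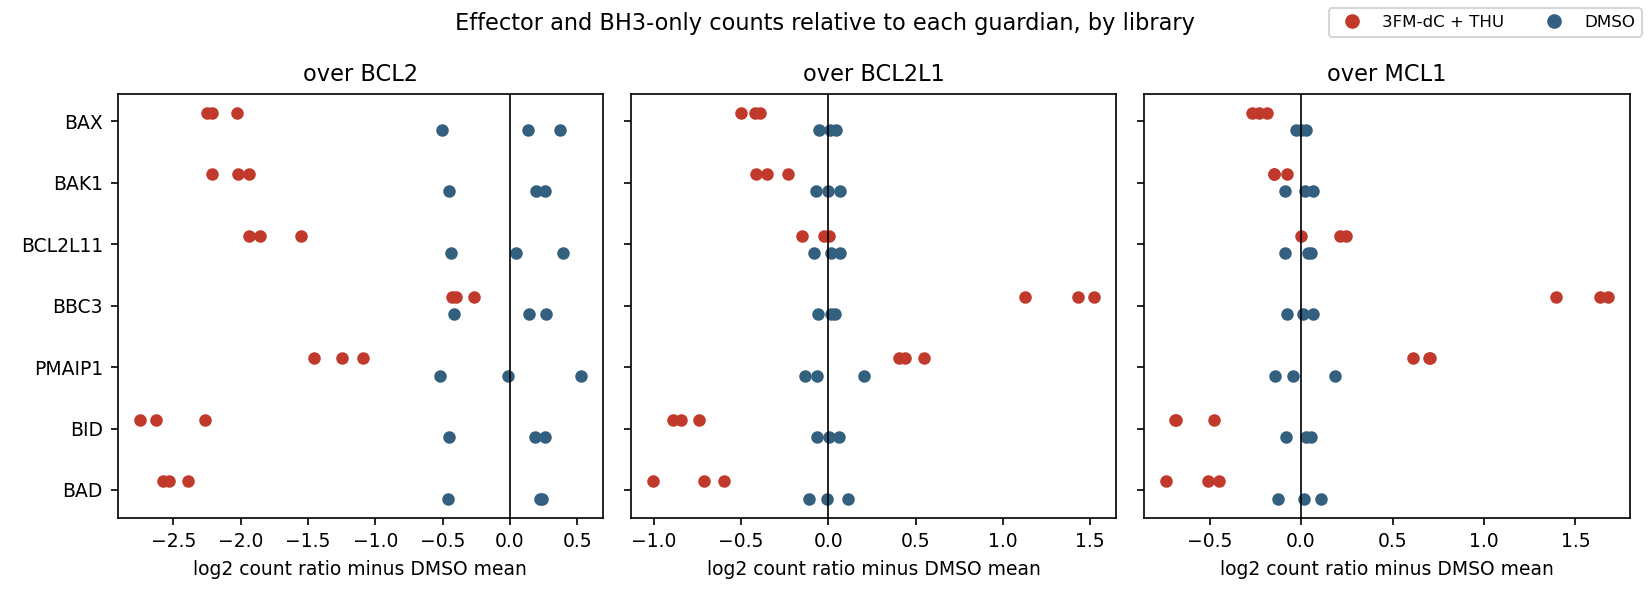
Log2 ratio of the counts of each effector and BH3-only gene to those of BCL2, BCL2L1 and MCL1, with 1 point per library and the mean of the DMSO libraries set to 0; red points are libraries with 3FM-dC plus THU and blue points are DMSO libraries. BBC3 and PMAIP1 lie to the right of the DMSO points over BCL2L1 and MCL1, while BAX, BID and BAD lie to the left of them over all 3 guardians.

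The wider family and the steps around it were read from 9 lists, all of whose 82 genes have a row in the files. Of these 71 were tested, 31 rose and 20 fell, where 33.8% of all tested genes rose and 32.7% fell. The median log2 fold change was 0.08 in the lists and 0.01 over all genes tested. The share that fell is thus no higher than that of all genes. A gene that passed the filter on low counts only through treated libraries had to be higher, and this applies to 1 of the genes that rose.

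Of 8 other BCL2 homologues 4 were tested, and of these BCL2L13 was the one that passed the test, where 66.4% of all tested genes passed. With total counts BCL2L12 passed as well (log2 fold change 0.13, edgeR adjusted p = 0.0112). BCL2L13, an outer mitochondrial membrane protein with a role in mitophagy, rose to 179 ± 6.59 CPM in treated cells, against 117 ± 3.67 CPM in DMSO cells (SD, n = 3 each). The guardian BCL2L2 had 34.8 ± 2.38 CPM in treated cells and 33.2 ± 1.68 in DMSO cells (edgeR adjusted p = 0.419), and it can share reads with a read-through transcript into its neighbour. BOK, an effector relative, and BCL2L12 did not pass (edgeR adjusted p = 0.425 and 0.415). The guardian BCL2A1 and the genes BCL2L10, BCL2L14 and BCL2L15 did not pass the filter on low counts.

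Among 6 other genes with a BH3 or BH3-like segment 4 were tested. Of these 2 rose and 1 fell, where 33.8% of all tested genes rose and 32.7% fell. BMF, a BH3-only gene linked to the cytoskeleton, had 54, 106 and 76 counts in treated replicates 1, 2 and 3, against 17, 15 and 25 in DMSO replicates 1, 2 and 3. It rose 3.86-fold (edgeR adjusted p = 2.01e-06), and treated replicate 2 was the highest library. BNIP3L, a mitophagy receptor of maturing red cells, rose 1.60-fold, while its relative BNIP3 fell by 0.38 on the log2 scale. The autophagy gene BECN1 did not pass (log2 fold change -0.02, edgeR adjusted p = 0.774), a sign that turned with total counts. HRK, a BH3-only gene, had 6, 3 and 4 counts in treated replicates 1, 2 and 3 and none in the DMSO libraries, and did not pass the filter on low counts. Without that filter it was called higher (edgeR adjusted p = 0.0046), on these few counts.

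Downstream of the membrane, 5 of 12 genes of the apoptosome, the caspases and the released factors rose and 2 fell, with a median log2 fold change of 0.06. Among all tested genes 33.8% rose and 32.7% fell, so these counts are not a result about the list. Against a minimum fold change of 1.2, 3 rose and 1 fell, where 2641 of the 12339 genes tested rose and 2124 fell. AIFM1 and HTRA2 were among the calls lost there (adjusted p = 0.071 and 0.415). CYCS, the cytochrome c gene, fell to 515 ± 20.4 CPM in treated cells, against 783 ± 11.1 CPM in DMSO cells (SD, n = 3 each), and the protease gene HTRA2 fell by 0.27 on the log2 scale. CASP8, the initiator caspase of death receptors that cleaves BID, rose to 24.9 ± 2.06 CPM in treated cells, against 14.8 ± 0.958 CPM in DMSO cells. APAF1, which builds the apoptosome with cytochrome c, rose by 0.53 and AIFM1 by 0.32 on the log2 scale. Inhibitors of apoptosis were split, with BIRC2 and XIAP higher and BIRC5 and BIRC6 lower among the 4 tested, though XIAP and BIRC6 did not pass against a minimum fold change of 1.2 (adjusted p = 0.737 and 0.799). BIRC2 rose by 0.49 and BIRC5, which encodes survivin, fell by 0.35 on the log2 scale.

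All 8 genes for outer membrane partners and mitochondrial dynamics fell, where 32.7% of all tested genes did, with a median log2 fold change of -0.31. The list holds the channels that sit beside BAX and BAK1 in the outer membrane, VDAC1, VDAC2 and VDAC3, and MTCH2, a docking site for cleaved BID. VDAC1 fell to 318 ± 14.02 CPM in treated cells, against 466 ± 10.5 CPM in DMSO cells (SD, n = 3 each), and MFN2, a fusion protein, to 312 ± 15.3 CPM in treated cells, against 434 ± 4.50 CPM in DMSO cells. These falls were small. Against a minimum fold change of 1.2, 3 of the 8 passed, where 2124 of the 12339 genes tested fell. With total counts 6 of the 8 passed, where 3189 genes fell, and VDAC3 and DNM1L lost the call (adjusted p = 0.331 and 0.0824). CYCS and the VDAC genes have pseudogenes with which they can share reads. Of 4 genes that act on the turnover of the MCL1 protein, the ubiquitin ligase HUWE1 rose 1.18-fold and the other 3 did not pass. HUWE1 was lost against a minimum fold change of 1.2 (adjusted p = 0.698), and with total counts USP9X, a deubiquitinase, rose as well (log2 fold change 0.12, adjusted p = 0.0057).

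Of 12 genes listed as transcription regulators of BH3-only genes, 10 rose, none fell and 2 did not pass, where 33.8% of all tested genes rose and 32.7% fell. Their median on the log2 scale was 1.26. TRIB3, a pseudokinase induced by stress, rose 4.998-fold and ATF4, the main factor of the integrated stress response, rose to 700 ± 13.3 CPM in treated cells, against 302 ± 3.48 CPM in DMSO cells (SD, n = 3 each). DDIT3, which encodes the stress factor CHOP, rose to 101 ± 12.04 CPM in treated cells, against 22.3 ± 1.21 CPM in DMSO cells. FOXO3, a known activator of BCL2L11 and BBC3, rose 1.99-fold. TP63 and FOXO1 did not pass. Stress genes of the ATF4 programme were already known to rise in these libraries when this list was drawn up, so its direction is not independent evidence.

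Of 7 regulators of guardian genes 4 fell and 1 rose, where 32.7% of all tested genes fell and 33.8% rose, and the median log2 fold change was -0.44. GATA1, which activates BCL2L1 in erythroid cells, fell by 0.57 and MYC by 0.49 on the log2 scale. STAT5A, another known activator of BCL2L1, fell to 535 ± 54.7 CPM in treated cells, against 812 ± 8.05 CPM in DMSO cells (SD, n = 3 each). Its paralogue STAT5B went the other way, with 279 ± 12.9 CPM in treated cells and 259 ± 5.06 CPM in DMSO cells (log2 fold change 0.11, edgeR adjusted p = 0.016). That call was lost against a minimum fold change of 1.2 (adjusted p = 1), without treated replicate 1 (0.108), without treated replicate 3 (0.056), without DMSO replicate 1 (0.0841) and without DMSO replicate 2 (0.0666). With total counts RELA also rose, by 0.12 on the log2 scale (adjusted p = 0.037). BCL2L1 was higher in the same treated libraries, and the part of these regulators in its level was not tested.

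**Figure D5:**
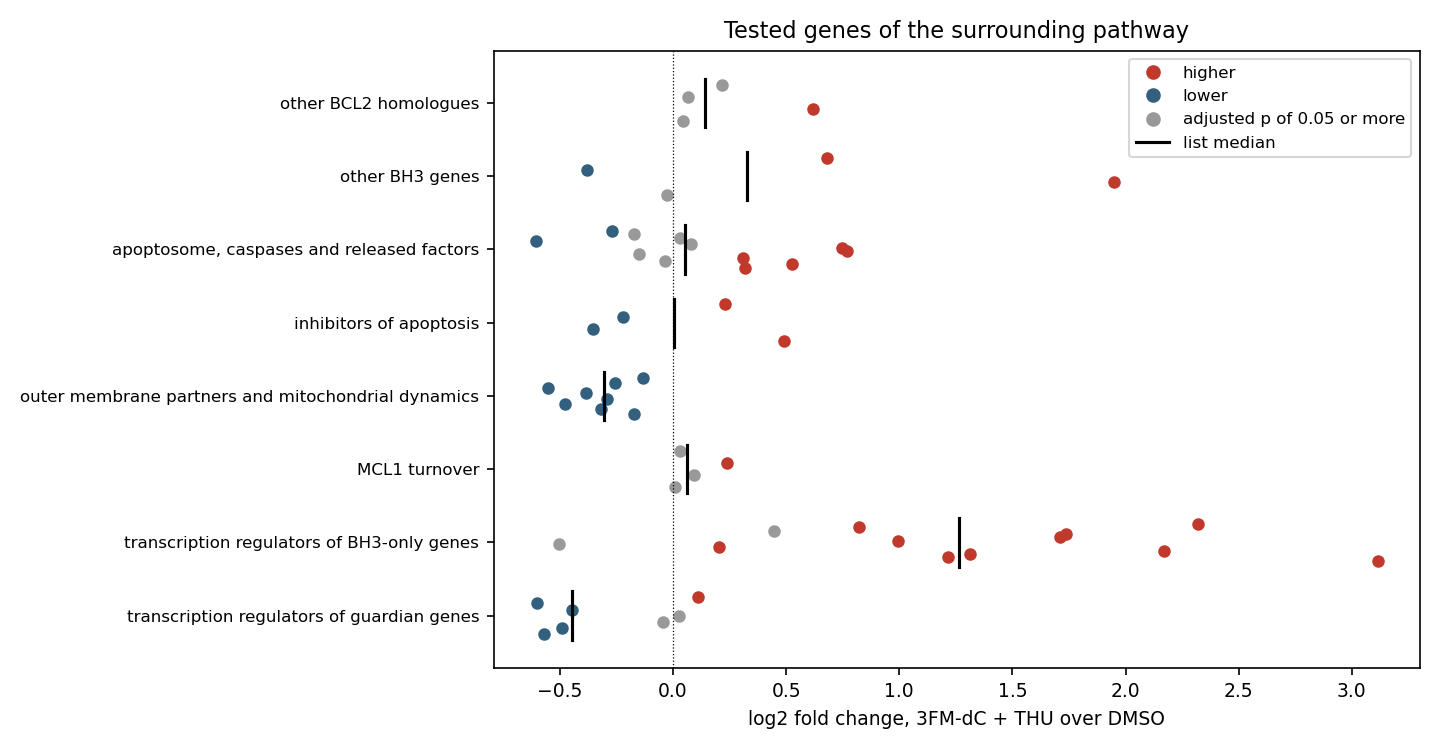
Log2 fold change, 3FM-dC plus THU over DMSO, of each tested gene in 8 lists around the BCL2 family; red points rose, blue points fell, grey points did not pass, and the black bar is the median of the list. Genes listed as regulators of BH3-only genes lie mostly to the right with a median of 1.26. All 8 genes listed as outer membrane partners and mitochondrial dynamics lie to the left.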

How the data were processed

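The data deposited by the authors are read counts for each gene symbol, 1 file for each of 6 libraries, with no normalization. The submitters' processing notes name STAR, Cufflinks, DESeq2 and the build hg19 without versions; the counter, its strand setting and the annotation are not stated. Of all counts, between 10.9% and 13.1% fell in no feature and between 2.27% and 2.38% were ambiguous, and these totals were removed. A fold ratio and an adjusted p-value of group B against group A come from the authors' deposited table, per the file headers, which do not name the groups.

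The quasi-likelihood test of edgeR (version 4.0.16, R 4.3.3) was run on all genes with treatment as its 1 term, TMM scaling and filterByExpr with a minimum count of 10, which kept 12339 symbols. Two-sided p-values were adjusted by Benjamini-Hochberg over all of them, with 0.05 as the threshold. The fit was tested on simulated data, and DESeq2 1.42.0 served as an alternative. Replicate pairs differed by a chi-square per degree of freedom between 2.38 and 6.22 and were kept as separate samples. A count of 3 corresponds to between 0.136 and 0.168 CPM, a limit that covers counting error only. Lengths and sequences come from GENCODE 29 and RefSeq on GRCh38 and were matched by symbol, since the counts are on hg19.

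The members, the lists and the rule for named genes were chosen with earlier results of these data known. All members were named, the 2 changed genes with the smallest p of each list, all tested relatives with BCL2-like or BH3 segments, and a few genes fixed by name, of which DDIT3 and ATF4 are described. Of the 9 lists 1, and a few genes of others, are not reported here, while counts over the lists include them. Any further gene was chosen for mention with its values in view. No motif was searched in proteins, and protein sequences were not used here.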

Additional observations from a re-analysis of the deposited data

How the results depend on the processing

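The rises of BCL2, BCL2L1, BBC3 and PMAIP1 and the fall of BID kept their direction and their side of the threshold under every alternative that gave a value, which were other scalings, DESeq2, other filters, a replicate block, a minimum fold change of 1.2 and leaving out each library in turn. The log2 fold change of BCL2 ranged from 1.94 to 2.35 and that of BBC3 from 1.69 to 1.86, and a filter at 5 CPM left BCL2 out. Against a minimum fold change of 1.2 the calls of MCL1 (0.19), BCL2L11 (0.34) and BAD (-0.37) were lost, and 2641 genes rose, 2124 fell, 12 genes of the surrounding lists fell and 1 member fell. BAX turned to 0.051 with total counts and to 0.0031 with the filter at 5 CPM, and BECN1 to 0.066 and 0.018. BAD was lost with total counts (-0.28) and with the filter at 5 CPM (-0.33), where 1 member fell in each case, and leaving out single libraries gave -0.45 to -0.27 for BAD, between 1 and 2 falling members and -0.071 to 0.016 for BECN1. With total counts 5048 genes rose and 3189 fell, against 4167 and 4031, and the median of all genes was 0.10. The cause of these differences was not tested. All 147 recomputed ratios kept their sign.

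The replicate numbers mark no stated pairing, and deviations of same-numbered libraries correlated at 0.000109, -0.0032 and -0.0732. With the replicate number as a block 4091 genes rose and 3959 fell, 6 members rose and 2 fell, and BAD had an adjusted p of 0.0288 in edgeR. BCL2, BAD and BMF rest on few counts, so that small changes in them are not detectable at this depth.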
